A study of Mus musculus with 34 samples.

Results

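The EGF receptor family and its ligands were examined in J1 cells, murine embryonic stem cells (mESCs) that in serum depend on leukemia inhibitory factor (LIF) to remain undifferentiated. The set held 10 of the 23366 gene symbols of the deposited RNA-seq table and was taken by gene name. It comprised the 4 receptors Egfr, Erbb2, Erbb3 and Erbb4 and the 6 ligands Egf, Hbegf, Areg, Ereg, Tgfa and Btc. All 4 libraries came from J1 cells grown on gelatin in serum medium from which LIF was withheld, 2 of them without further addition (serum/-LIF) and 2 with purified honey bee Royalactin at 0.5 mg/ml (serum/-LIF + Royalactin). The sample labels give passage 40 for every library, whereas the study's text gives a lower passage for its RNA-seq, and no time of harvest is labelled. J1 is a single line, so the replicates are cultures of one genotype, and the series' text speaks of biological duplicates. The ATAC-seq libraries of the series were not analysed here.

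The receptors of this family are tyrosine kinases at the cell surface that pair up when a ligand binds, phosphorylate each other and recruit adaptors that switch on the RAS-RAF-MEK-ERK cascade and PI3-kinase. Erbb2 binds no known ligand and works as a partner of the others, and Erbb3 has little kinase activity of its own and signals through its partners. The ligands are made as membrane-bound precursors that proteases of the ADAM family cut free. Royalactin was proposed to act through Egfr in insects, and in mouse embryonic stem cells ERK signalling is known to favour exit from the naive state. The question here was which of these genes were transcribed in the J1 cultures and whether their transcript levels differed with Royalactin.

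Promoter sequences are shown as a description for 3 members picked by their values in these libraries. A link between these sequences and the transcript levels was not tested. Egfr and Tgfa are a receptor and a ligand whose libraries did not overlap between the conditions, and Areg had no read in any library. Each run is the 250 bases before the RefSeq start (RefSeq table of build GRCm38.p6), read 5′ to 3′ on the strand of the gene, and each matched the mouse genome build mm9 without a mismatch at 1 place. Capitals mark any match, on either strand, to 5 motifs. The TATA box was searched as TATAAA, and the GC box, where the factor Sp1 can bind, as GGGCGG. The CCAAT box was searched by those letters. The cAMP response element was searched as TGACGTCA, and the AP-1 element, a target of Fos and Jun, as TGACTCA. None of these 5 motifs contains another.
Egfr, chr11:16651956-16652205, forward strand: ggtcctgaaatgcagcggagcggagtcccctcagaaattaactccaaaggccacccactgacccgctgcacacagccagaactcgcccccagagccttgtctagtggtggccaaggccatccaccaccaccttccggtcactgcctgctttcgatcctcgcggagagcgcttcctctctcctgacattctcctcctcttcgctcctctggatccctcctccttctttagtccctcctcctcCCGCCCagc
Tgfa, chr6:86144966-86145215, forward strand: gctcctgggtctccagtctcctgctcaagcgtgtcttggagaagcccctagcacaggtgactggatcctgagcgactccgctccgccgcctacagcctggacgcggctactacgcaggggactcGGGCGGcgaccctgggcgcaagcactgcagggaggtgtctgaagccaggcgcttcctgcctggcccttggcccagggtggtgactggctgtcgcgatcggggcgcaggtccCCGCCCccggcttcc
Areg, chr5:91568375-91568624, forward strand: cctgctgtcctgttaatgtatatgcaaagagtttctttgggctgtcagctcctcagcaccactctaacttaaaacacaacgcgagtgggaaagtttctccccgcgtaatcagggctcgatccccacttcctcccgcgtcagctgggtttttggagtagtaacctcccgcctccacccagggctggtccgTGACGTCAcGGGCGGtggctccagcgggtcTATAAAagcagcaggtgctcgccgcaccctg
Entries for Erbb3, Hbegf and Ereg were not used here, and 7 members were matched. The window of Egfr held a GC box and no TATA box, and that of Tgfa held GC boxes on both strands. A GC box was found in 32.7% of the 32851 promoter windows of the table. The window of Areg held a TATA box beginning at position -31 from the start, a GC box and a cAMP response element, a motif present in 1.55% of all windows (the TATA box was in 12.4%). GC content was 60.8% for Egfr, 69.2% for Tgfa and 57.2% for Areg, against a median of 52.4% over all windows. The ratio of observed to expected CpG was 0.55, 0.64 and 0.74 in the same order, above the median of 0.37 over all windows. The CpG ratio of the Areg window, with no read downstream of it, was above those of the transcribed Egfr and Tgfa. Its number of CpG was 15, against 11 for Egfr and 19 for Tgfa. The window of Btc, also without reads, had a CpG ratio of 0.18 and held none of the motifs. That of Erbb4, likewise without reads, had a ratio of 0.67 and none of the motifs. Egf, which had reads, had windows with ratios of 0 and 0.90 and none of the motifs. Erbb2, with reads, had a ratio of 0.63 and a CCAAT box.

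Between 14737796 and 17597818 reads per library were counted on genes, 7878527 to 15999458 of them outside the ribosomal RNA precursor Rn45s, which took 9.08% to 46.6%. Values are normalized counts, which are reads divided by 1 size factor per library, and 1 read was worth 0.69 to 1.34 normalized counts. Of 10 fixed markers of embryonic stem cells, 10 had reads in every library, Pou5f1 (Oct4) between 4996 and 7453 normalized counts. The summed level of the 10 markers was 15338 to 16869 in serum/-LIF and 24954 to 26842 in serum/-LIF + Royalactin. By the limma test described below, 5 of the 10 were higher with Royalactin at an adjusted p under 0.05 and 0 lower. Of all tested genes, 0.331% were called higher. Klf4 rose most, from 30.8 and 18.6 normalized counts in serum/-LIF to 485 and 277 in serum/-LIF + Royalactin. Pou5f1 and Utf1 overlapped between the conditions, and Lin28a was lower with Royalactin (log2 fold change -0.19). The serum/-LIF libraries stood apart from each other. Over the tested genes, on the log2 scale, Pearson's r was 0.876 between them, against 0.929 between the Royalactin libraries. Serum/-LIF replicate 1 correlated more closely with the Royalactin libraries (0.890 and 0.902) than with serum/-LIF replicate 2, which had the lowest r of all pairs, 0.844 with serum/-LIF + Royalactin replicate 1.

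Of the 10 members, 6 had reads in every library and 4 had none in any. Egfr, Erbb2 and Erbb3 were the receptors with reads, and Egf, Hbegf and Tgfa the ligands with reads. Erbb4, a receptor for neuregulins, and the ligands amphiregulin (Areg), epiregulin (Ereg) and betacellulin (Btc) were at 0 in all 4 libraries. A count of 0 was taken to allow up to 3 reads per library, which is at most 4.01 normalized counts. The two-sided 95% Poisson interval of a count of 0 ends at 3.69 reads, which is at most 4.93 normalized counts. The limit of 3 reads takes in counting error alone, as reads copied from one molecule are not independent. Over all symbols, 28.6% were at 0 in every library. Per kilobase of exon the limit was 0.33 for Erbb4, 0.97 for Ereg, 1.44 for Btc and 3.35 for the short transcript of Areg, in normalized counts. For Erbb4, Ereg and Btc it lay below the level of Egf in every library (1.95 to 3.63 per kilobase), whereas for Areg it did not.

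**Figure D1:**
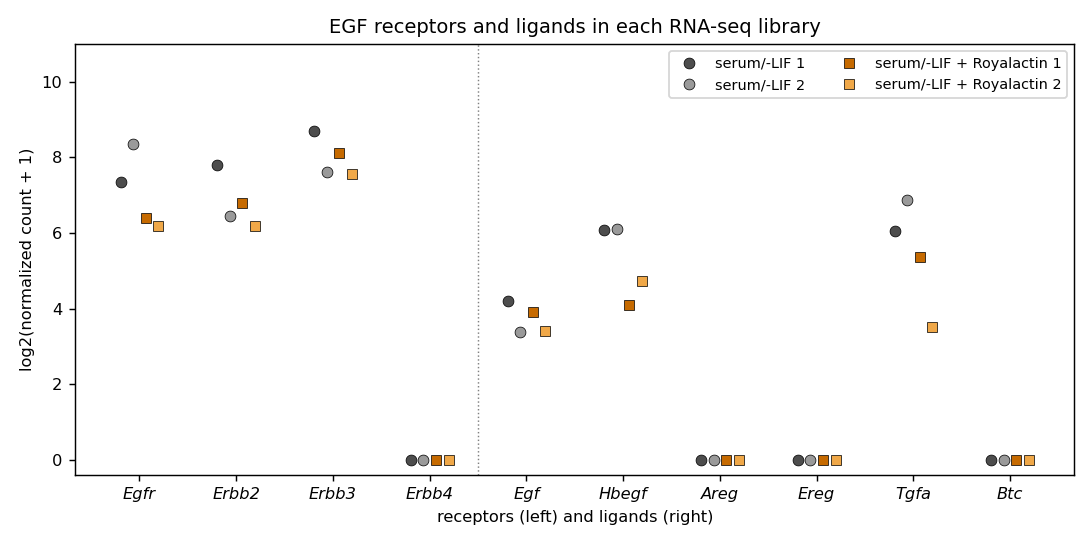
Normalized counts of the 10 members on a log2 scale after adding 1, with 1 point for each of the 4 libraries (circles serum/-LIF, squares serum/-LIF + Royalactin), receptors on the left and ligands on the right. The Royalactin squares lie below both circles for Egfr, Hbegf and Tgfa, are mixed with them for Erbb2, Erbb3 and Egf, and 4 members stay at 0.

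The 3 ligands without reads are neighbours in the genome. With epigen (Epgn), a further ligand of Egfr that was also at 0 in all 4 libraries, Ereg, Areg and Btc lie in this order on chromosome 5 between 91456490 and 91831939 of mm9, a stretch of 375450 bases. This stretch was looked at after the values were seen. In the window that reaches 300000 bases further on each side the table held 12 genes, of which 6 were at 0 in every library. The gene before the cluster, Mthfd2l, a mitochondrial enzyme of folate metabolism, had 54.8 and 107 normalized counts in serum/-LIF and 28.2 and 42.0 in serum/-LIF + Royalactin. The gene after it, Parm1, had 9.05 to 24.8 over the 4 libraries. Reads were therefore counted on the next gene on either side of the cluster and on none of its 4 ligand genes. Further out in the window, Ppbp and Cxcl1 were also at 0 in all 4 libraries. Cxcl5, Pf4, Cxcl3 and Cxcl2 had at most 16.6 normalized counts, and each was at 0 in some libraries. Of the exon pieces of Areg, Ereg and Btc, cut as 75-base tiles, 0% matched another place in mm9 with up to 2 mismatches.

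Egfr, the receptor for all 6 ligands examined here (chromosome 11, 16652206 to 16818161 of mm9), had 162 and 324 normalized counts in serum/-LIF and 83.5 and 71.6 in serum/-LIF + Royalactin. Both Royalactin libraries lay below both serum/-LIF libraries, and serum/-LIF replicate 2 was the highest of the 4. These values rest on 83 to 313 reads per library. The means were 243 ± 115 and 77.5 ± 8.41 normalized counts (SD, n = 2), 3.13-fold higher in serum/-LIF. The log2 fold change, fitted on log2(normalized count + 1) with limma over the 12993 genes with a mean of at least 10, was -1.55 (standard error 0.52, 95% interval -2.68 to -0.43). After Benjamini-Hochberg adjustment over these genes it was not past the threshold of 0.05 (limma adjusted p = 0.319, p without adjustment 0.0102). On the same log2 scale the serum/-LIF replicates lay 1.00 apart and the Royalactin replicates 0.22. It rested in part on serum/-LIF replicate 2, without which the log2 fold change was -1.06 and the unadjusted limma p was 0.102. Of the 75-base tiles of Egfr exons 0.26% matched elsewhere, and 0 of its exon bases overlapped another annotated gene.

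Erbb2, the receptor without a known ligand (chromosome 11, 98273784 to 98299030), had 221 and 86.9 normalized counts in serum/-LIF and 110 and 71.6 in serum/-LIF + Royalactin. The conditions overlapped, because serum/-LIF replicate 2 lay between the Royalactin libraries. Its log2 fold change was -0.64 (95% interval -1.91 to 0.63, limma adjusted p = 0.796, Benjamini-Hochberg). Erbb3 (chromosome 10, 128004579 to 128026708) had 412 and 194 normalized counts in serum/-LIF and 278 and 187 in serum/-LIF + Royalactin. Here too the conditions overlapped, with a log2 fold change of -0.31 (95% interval -1.29 to 0.67, limma adjusted p = 0.881, Benjamini-Hochberg). For both genes the gap between the serum/-LIF replicates, 1.33 for Erbb2 and 1.09 for Erbb3 on the log2 scale, was larger than that between the conditions. The serum/-LIF replicates differed in opposite directions, replicate 1 being higher for Erbb2 and Erbb3 and replicate 2 for Egfr. Without serum/-LIF replicate 1 the log2 fold change turned to 0.03 for Erbb2 and 0.23 for Erbb3, neither past the threshold. Of the exon bases of Erbb2, 9 overlap 1810046J19Rik on the opposite strand.

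Tgfa, the gene for transforming growth factor alpha, a ligand specific to Egfr (chromosome 6, 86145420 to 86225151), had 65.5 and 116 normalized counts in serum/-LIF and 40.2 and 10.3 in serum/-LIF + Royalactin. Both Royalactin libraries were below both serum/-LIF libraries, and they differed from each other by 1.86 on the log2 scale. Only 15 reads were counted in serum/-LIF + Royalactin replicate 2, against 112 in serum/-LIF replicate 2. The means were 90.7 ± 35.6 and 25.3 ± 21.1 normalized counts (SD, n = 2). The log2 fold change was -2.03 (standard error 0.85, 95% interval -3.87 to -0.19), the largest in size among the members, and was not past the adjusted threshold (limma adjusted p = 0.470, p without adjustment 0.0331). Without serum/-LIF + Royalactin replicate 2 it was -1.10, and without serum/-LIF + Royalactin replicate 1 it was -2.96.

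Hbegf, a heparin-binding ligand of Egfr and Erbb4 (chromosome 18, 36664583 to 36675459), was the most even member in serum/-LIF, with 66.9 and 68.3 normalized counts, and had 16.1 and 25.5 in serum/-LIF + Royalactin. The conditions did not overlap, with means of 67.6 ± 1.02 and 20.8 ± 6.63 normalized counts (SD, n = 2). The log2 fold change was -1.69 (standard error 0.82, 95% interval -3.45 to 0.07), with a limma adjusted p of 0.561 after Benjamini-Hochberg. Its values rest on 16 to 66 reads per library. Egf itself (chromosome 3, 129380493 to 129458240) was the weakest member with reads, at 17.4 and 9.32 normalized counts in serum/-LIF and 14.1 and 9.64 in serum/-LIF + Royalactin, from 9 to 14 reads per library. The conditions overlapped, and the interval of its log2 fold change of -0.12 ran from -3.04 to 2.79, so that no difference was detectable at this depth.

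**Figure D2:**
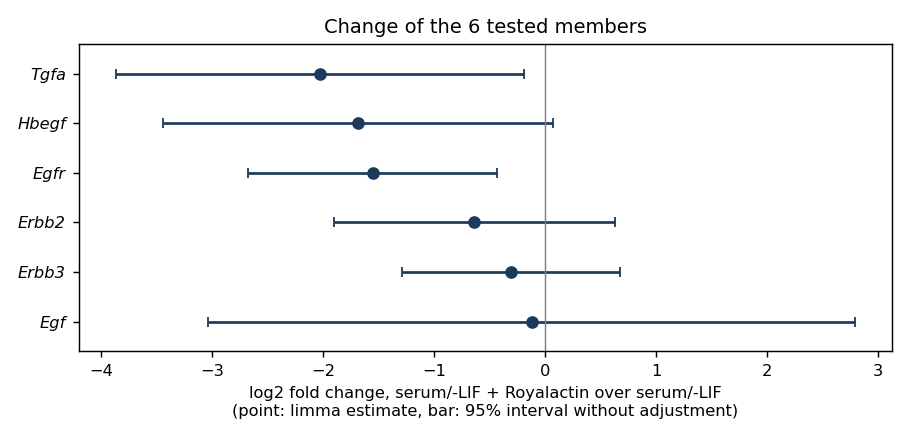
Log2 fold change of the 6 tested members in serum/-LIF + Royalactin over serum/-LIF, with the limma estimate as a point and its 95% interval without adjustment as a bar. All 6 estimates are below 0, the intervals of Tgfa and Egfr lie wholly below 0, and none of the 6 passed the adjusted threshold.

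Of the 6 tested members, 0 passed an adjusted p of 0.05 in limma, against 0.493% of all 12993 genes tested (0.162% lower with Royalactin), and 2 had an unadjusted p under 0.05, as did 9.34% of all tested genes. By the limits stated in the study's methods, a p of 0.05 and a fold change of 2, applied here to the unadjusted limma p, Egfr and Tgfa were selected, both lower with Royalactin, where 7.13% of all tested genes were selected in either direction, 3.61% lower and 3.52% higher. With 1 library left out the selection shrank to Egfr without serum/-LIF replicate 1, to Tgfa without serum/-LIF + Royalactin replicate 1, and to 0 members without serum/-LIF replicate 2 or without serum/-LIF + Royalactin replicate 2. The libraries of the conditions did not overlap for 3 of the 6 members, Egfr, Hbegf and Tgfa, all lower with Royalactin, against 38.6% of all tested genes without overlap in either direction, 18.9% lower and 19.7% higher. The estimate was below 0 for 6 of the 6 tested members and for 50.6% of all tested genes. Without serum/-LIF replicate 1 it was below 0 for 3 of the 6, with Erbb2, Erbb3 and Egf above 0, and without serum/-LIF + Royalactin replicate 2 for 5 of the 6. Without serum/-LIF replicate 1 the log2 fold change was -2.05 for Egfr, -2.44 for Tgfa and -1.70 for Hbegf, and without serum/-LIF replicate 2 it was -1.06, -1.62 and -1.67 in the same order. The median log2 fold change was -1.10 over the 6 tested members and -0.01 over all tested genes.

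The RNA came from whole cultures, in which fewer cells of a type and less RNA per cell cannot be told apart. Of the 8 fixed trophoblast markers, Krt8 and Krt18, keratins of simple epithelia, fell with Royalactin, from 890 ± 10.4 to 200 ± 137 and from 731 ± 0.54 to 169 ± 82.4 normalized counts (SD, n = 2). Their limma adjusted p-values were 0.0400 and 0.0336 (Benjamini-Hochberg). The summed level of these 8 markers was 1643 to 1650 in serum/-LIF and 253 to 571 in serum/-LIF + Royalactin, and nearly all of it was Krt8 and Krt18. The other 6 markers summed to 14.5 to 36.1 normalized counts in serum/-LIF and 39.2 to 47.5 in serum/-LIF + Royalactin. Of these, Krt7 had 10.7 and 14.5 against 26.2 in both Royalactin libraries (limma adjusted p = 0.835), Elf5 was at 0 in all libraries and Cdx2 in 3 of 4. The 10 fibroblast markers summed to 127 to 143 normalized counts in serum/-LIF and 54.4 to 66.4 in serum/-LIF + Royalactin, with Pdgfrb and Postn at 0 in all libraries. The 8 primitive endoderm markers summed to 447 to 947 and 636 to 1105 normalized counts. The part of other cell types in the lower Egfr, Hbegf and Tgfa levels was not tested.

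Levels of different members were compared per kilobase of merged exons. Erbb3 was the highest member in both conditions, with 50.3 ± 25.7 normalized counts per kilobase in serum/-LIF and 38.6 ± 10.7 in serum/-LIF + Royalactin (SD, n = 2). In serum/-LIF it was followed by Erbb2 (29.5 ± 18.1), Hbegf (28.5 ± 0.43), Tgfa (24.1 ± 9.47) and Egfr (21.4 ± 10.1), and each neighbour in this order overlapped the next. Egf was last at 2.79 ± 1.19 per kilobase and lay apart from Egfr, whose lower library had 14.3. In serum/-LIF + Royalactin the order was Erbb3, Erbb2 (17.4 ± 5.16), Hbegf (8.76 ± 2.79), Egfr (6.85 ± 0.74), Tgfa (6.72 ± 5.62) and Egf (2.48 ± 0.66). There the libraries of Erbb3 did not overlap those of Erbb2, nor those of Erbb2 with Hbegf, whereas Hbegf, Egfr, Tgfa and Egf each overlapped the next. Among the 15395 genes with reads and a known length, Erbb3 stood at percentile 52.6 of the mean level per kilobase, Erbb2 at 42.4, Hbegf at 39.4, Tgfa at 37.0 and Egfr at 35.8.

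**Figure D3:**
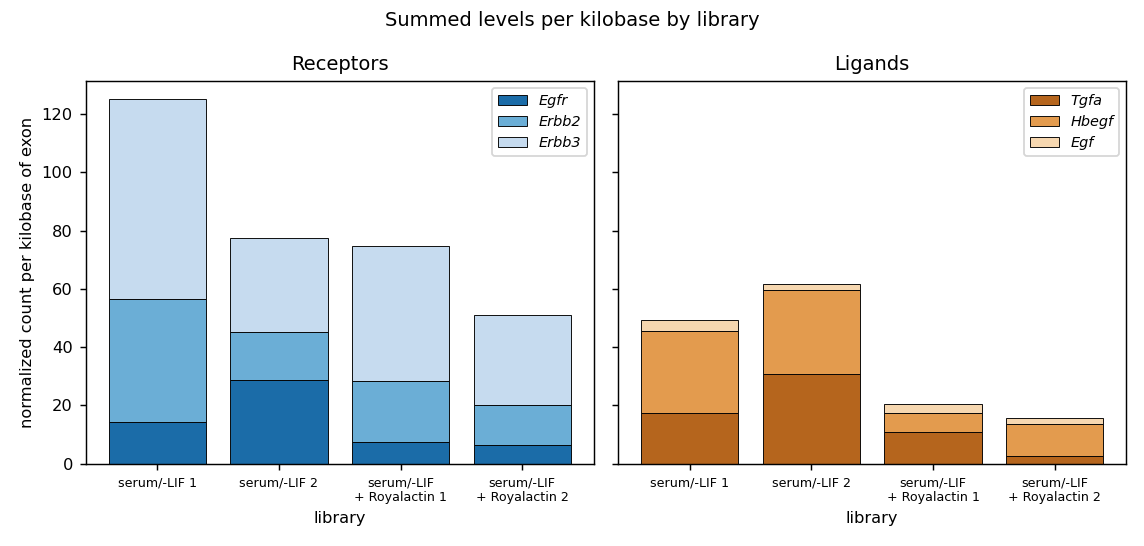
Normalized counts per kilobase of merged exons, stacked by gene for the receptors (left) and the ligands (right) in each of the 4 libraries, with the members at 0 left out. Erbb3 is the largest receptor segment in every library, and the ligand stacks reach 49.2 and 61.5 in serum/-LIF and 20.4 and 15.5 in serum/-LIF + Royalactin.

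A share within a library does not depend on the scaling between libraries. Per kilobase, Erbb3 made up 54.7% and 41.5% of the receptor level in serum/-LIF and 61.9% and 60.7% in serum/-LIF + Royalactin. Egfr made up 11.4% and 36.9% in serum/-LIF and 9.89% and 12.4% in serum/-LIF + Royalactin. The share of Egfr therefore overlapped between the conditions, and its high value was that of serum/-LIF replicate 2 alone. Erbb2 kept a share of 21.5% to 33.9% over the 4 libraries. Among the ligands, Hbegf and Tgfa together held all but 7.38% and 3.16% in serum/-LIF and all but 14.4% or less in serum/-LIF + Royalactin, the remainder being Egf. The Royalactin replicates differed in which of them was higher, Hbegf holding 33.2% and 69.3% and Tgfa 52.4% and 17.7%. With 2 libraries per condition the smallest p that an exact permutation test can give is 0.33 (two-sided), so these shares are a description.

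By pattern over the 4 libraries, the tested genes nearest to Egfr were Rgs2, a regulator of G-protein signalling, Ak3, a mitochondrial adenylate kinase, and Sh3bgrl. Their log2 values, centred on the mean of each gene, had root mean square differences from those of Egfr of 0.04, 0.05 and 0.06. Rgs2 had 78.9 and 147 normalized counts in serum/-LIF and 40.2 and 33.7 in serum/-LIF + Royalactin. Among the members themselves Erbb3 and Egf were the closest pair, at 0.13, and Erbb2 and Erbb3 were 0.19 apart. Hbegf was the member nearest to Egfr, at 0.46. With 4 libraries such likeness is a description of few points.

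The remaining genes of the pathway were read from 7 lists, and 0 of their 76 tested genes passed an adjusted p of 0.05 in limma, while 6 (7.89%) had an unadjusted p under 0.05, against 9.34% of all tested genes. Of the 5 other ligands, Epgn and the neuregulin Nrg3 were at 0 in all libraries. The other neuregulins, ligands of Erbb4 and, for Nrg1 and Nrg2, also of Erbb3, were weak. Nrg1 had 44.1 and 0 normalized counts in serum/-LIF and 11.1 and 20.0 in serum/-LIF + Royalactin, and Nrg4 had 31.1 to 57.3 over the 4 libraries. Nrg2 showed the largest rise of its list by estimate, with 0 and 10.4 normalized counts in serum/-LIF and 18.1 and 15.8 with Royalactin (limma adjusted p = 0.748), and Nrg4 had the lowest log2 fold change of the list, 0.27. The median over these 3 tested genes, 1.24, was the value of Nrg1 and rested on its 0 in serum/-LIF replicate 2. The mean of Nrg1 was 22.1 normalized counts in serum/-LIF and 15.5 in serum/-LIF + Royalactin. Without serum/-LIF replicate 2 the median of the list was -0.019.

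Of the 9 listed proteases that release the ligands and their cofactors, 7 were tested, and Adam8 and Adam12 were below the filter, at 0 to 14.7 normalized counts. Adam17, which cuts free Tgfa, Hbegf, Areg and Ereg, had 792 and 972 normalized counts in serum/-LIF and 745 and 997 in serum/-LIF + Royalactin, a log2 fold change of -0.03 (95% interval -0.71 to 0.66). Adam10, which releases Egf and Btc, had 348 to 621 over the 4 libraries. The largest estimated rise among the 7 tested genes of the list was that of Adam19, at 329 and 362 against 849 and 589 normalized counts, without overlap (log2 fold change 1.03, limma adjusted p = 0.320, Benjamini-Hochberg). Adam19 met the limits of the study's methods as applied to the members (limma p without adjustment 0.0105), as did 7.13% of all tested genes. The largest fall by estimate was that of Rhbdf1, a cofactor of Adam17, whose log2 fold change of -0.66 came from serum/-LIF replicate 1 at 238 against 62.4 to 101 in the other 3 libraries.

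Downstream of the receptor, the 17 adaptors and proximal effectors had a median log2 fold change of 0.05 and the 10 tested genes of the RAS-RAF-MEK-ERK cascade one of 0.17. Shc1, an adaptor that docks on the phosphorylated receptor, had 1801 and 1154 normalized counts in serum/-LIF and 823 and 935 in serum/-LIF + Royalactin (log2 fold change -0.72, limma adjusted p = 0.512, Benjamini-Hochberg). Gab1, a docking protein that recruits PI3-kinase, had 1698 and 1095 against 2674 and 2093 (log2 fold change 0.79, adjusted p = 0.429 by the same test). Both lay apart between the conditions, in opposite directions, and neither passed the threshold. In the cascade Ksr1, a scaffold of the kinases, had the highest log2 fold change, 2.10, with serum/-LIF replicate 2 at 3.11 normalized counts and the other libraries at 46.3 to 81.2.

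Among the 15 negative regulators of the receptor the median log2 fold change was -0.11. Errfi1 (Mig6), an inhibitor that binds the kinase domain and is itself induced by Egfr signalling, had 340 and 382 normalized counts in serum/-LIF and 195 and 288 in serum/-LIF + Royalactin (log2 fold change -0.60, limma adjusted p = 0.690, Benjamini-Hochberg). Lrig1, a membrane protein that promotes turnover of the receptor, had 167 and 60.0 against 181 and 240 (log2 fold change 1.05, adjusted p = 0.610 by the same test). The 10 genes of receptor endocytosis and sorting spanned log2 fold changes of only -0.53 (Tsg101) to 0.43 (Epn2). Of the 14 tested genes that ERK induces after EGF, 7 had a higher and 7 a lower estimate with Royalactin. Dusp6, the phosphatase that acts on ERK, had 2524 and 2611 normalized counts in serum/-LIF and 1176 and 1141 in serum/-LIF + Royalactin. Its log2 fold change was -1.15 with a standard error of 0.28 and a limma adjusted p of 0.132, and the replicates of each condition lay close together. Spry4, another feedback inhibitor of the pathway, had 340 and 23.8 normalized counts in serum/-LIF and 857 and 542 in serum/-LIF + Royalactin (log2 fold change 2.89, adjusted p = 0.210 by the same test). These feedback genes of the same cascade lay apart between the conditions in opposite directions, neither past the adjusted threshold. Both met the limits of the study's methods as applied to the members, Dusp6 lower and Spry4 higher with Royalactin. Their limma p without adjustment was 0.00132 and 0.00401. Of all tested genes, 7.13% met these limits.

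**Figure D4:**
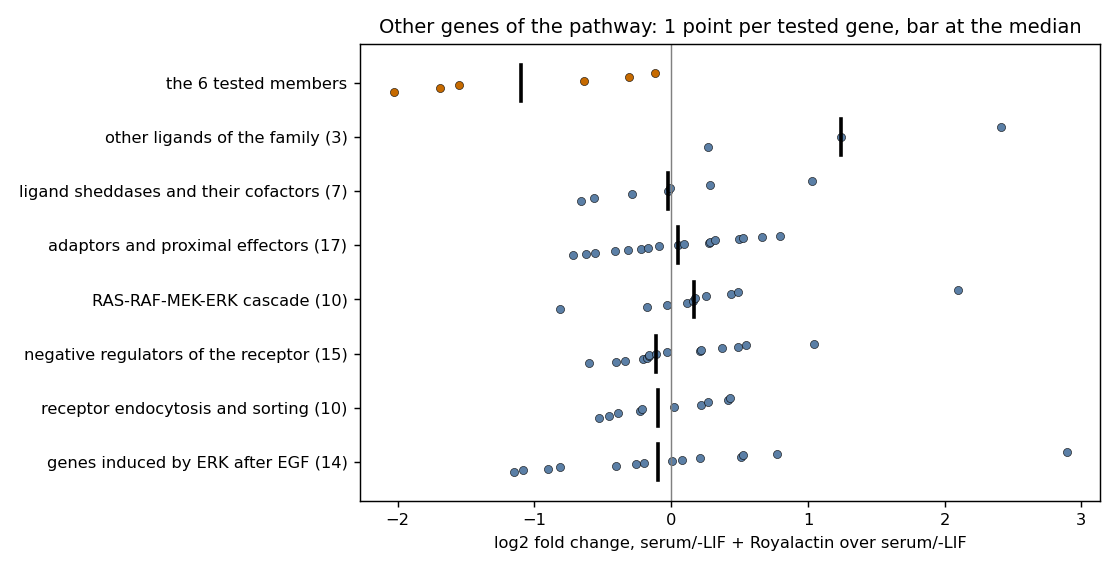
Log2 fold change in serum/-LIF + Royalactin over serum/-LIF for each tested gene of the 7 pathway lists and for the 6 tested members, with a bar at the median of each list. The other ligands have a median of 1.24 over 3 genes, which is -0.019 without serum/-LIF replicate 2. The remaining lists have medians between -0.11 and 0.17, and the members have a median of -1.10.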

How the data were processed

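The authors aligned single-end reads of ribosomal RNA-depleted libraries to mm9 with Tophat, obtained gene counts with HTSeq-count and scaled these by DESeq size factors. The deposited values are such normalized counts, a signal proportional to reads, and the strand setting and annotation are not given in the sources used here. All 4 columns were mapped to samples by their labels. Dividing each column by the value of 1 read gave whole reads for 100% of values (tolerance 0.01 reads). These reads are quoted but were not tested as counts, because in serum/-LIF + Royalactin replicate 1 that value is close to 1 and the recovery could not be checked independently.

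Differences were tested with limma 3.58.1 in R 4.3.3 (two-sided, variance trend on, p-values adjusted by Benjamini-Hochberg) on log2(normalized count + 1) for genes with a mean of at least 10, a scale that understates changes of weak genes. The steps were also run on simulated counts with the same dispersion for every gene and no further difference between replicates. That run does not measure how the test performs at the replicate spread of these data. Exon lengths and positions came from GENCODE for the same build, and 75-base exon tiles, placed every 25 bases, were mapped with minimap2 2.31-r1302. Genes named were the members, the extremes of each pathway list (1 of them is not reported here), the 3 genes nearest to Egfr, and markers or neighbours a result touches. A few further pathway genes (Nrg1, Nrg3, Epgn, Adam10, Adam17) were named for their role after their values were seen. The members and lists were chosen with earlier results of these data known. Alternatives were other pseudocounts (0.1 and 5), filters, scalings, the replicate block, no trend, each library left out, and the longest transcript as length.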

Additional observations from a re-analysis of the deposited data

How the results depend on the processing

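With 2 libraries per condition and few reads for some members, only large differences could pass. No member passed an adjusted p of 0.05 under the alternatives that kept all 4 libraries, and a mean of at least 50 left 4 members to test. Without the trend no gene at all passed, so that setting could not call a member. Fits with a library left out have 1 library in a condition and cannot decide this. Egfr, Hbegf and Tgfa kept a negative log2 fold change under all alternatives in which they were tested. Their libraries did not overlap between the conditions, so leaving out a library or changing the pseudocount could not turn the sign. The filters, the block and the fit without the trend leave the estimate as it is. Only the other scalings could have turned the sign of these members. With all 4 libraries the adjusted limma p of Egfr ranged from 0.0849 with the replicate number as a block to 0.491 without the trend. When single libraries were omitted, the log2 fold change ranged from -1.31 to 0.027 for Erbb2, -0.85 to 0.23 for Erbb3 and -0.54 to 0.30 for Egf, turning positive without serum/-LIF replicate 1 for all 3 and for Egf also without serum/-LIF + Royalactin replicate 2 (0.13). The cause was not tested. The number of members selected by an unadjusted p of 0.05 and 2-fold, 2 as reported, was 1 with no filter on low values (Egfr) and 0 to 1 with a library left out. Without the trend Egfr and Hbegf were selected in place of Egfr and Tgfa.

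Over all genes, 64 passed the adjusted limma threshold, 32 with a pseudocount of 0.1, 34 with no filter beyond a value above 0, 99 with a mean of at least 50, 391 with the replicate block and 0 without the trend (1135 at an unadjusted p under 0.05) or with any library left out (428 to 2496 at an unadjusted p under 0.05). The selection by p and 2-fold, 927 genes, ranged from 427 to 1925 with a library left out. Same-numbered replicates deviated together only weakly (Pearson correlation 0.0851 across genes), so the numbers were not taken as pairs. The share of Rn45s did follow the number. It was 46.6% in replicate 1 and 21.6% in replicate 2 of serum/-LIF, and 38.4% and 9.08% in serum/-LIF + Royalactin. With the replicate block the adjusted limma p was 0.713 for Erbb2 and 0.837 for Erbb3. Medians of the pathway lists moved by more than the replicate spread for the other ligands (2.83 with a pseudocount of 0.1, -0.019 to 1.64 with a library left out), the proteases (-0.55 to 0.26), the adaptors (-0.25 to 0.32) and the negative regulators (-0.013 to 0.12). With the longest transcript as length, Egfr had 7.60 normalized counts per kilobase in serum/-LIF + Royalactin against 6.85, and the share of Erbb3 there was 59.9% against 61.3%. No other level or share moved by more than its replicate SD.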
